A study of Mus musculus with 4 samples.

Results

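The 39 genes described here carry fatty acids through the cell: enzymes that make, lengthen and desaturate them, carriers and activating enzymes, the enzymes that build triglyceride, the coat of the lipid droplet, lipases, and the enzymes of mitochondrial beta-oxidation. They were taken by symbol from a named list, and all 39 were found among the 56832 genes in the files. Their RNA was sequenced in 4 libraries of cultured microglia, the resident macrophages of the brain, from C57BL/6 mice, sorted by flow cytometry from primary glial cultures after trypsin, with the antibodies and gates not in the labels. The 4 libraries are replicates 1 to 4 of a single group, with no transgene, treatment, age or time given in the labels. The labels name no separate cultures or animals, so an SD or p-value here measures how far these 4 libraries differ, which may be technical. The series also covers blood stem and progenitor cells grown alone or with glia, which were not analysed here.

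Fatty acids enter a cell through surface receptors or are made from acetyl-CoA, and are activated to acyl-CoA before any further use. They are then built into membranes, stored as triglyceride in lipid droplets, or shortened in mitochondria for energy. Droplets form in macrophages and microglia that take up lipid-rich debris, and their coat proteins decide which lipases reach the stored fat.

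Values are read counts per gene, given as CPM (a gene's count scaled to a common library total) within a gene, and as TPM (counts per base of exon, scaled in the same way) between genes. The libraries held 23212183 to 28469813 gene counts, and the 39 genes took 0.350% ± 0.0108 (SD, n = 4) of them. All 10 microglia markers looked at reached 1 CPM in every library, with a median of 1846 TPM ± 63.4. Among them the complement gene C1qa was at 12624 TPM ± 261. P2ry12, a purinergic receptor of microglia, was the 1 marker of the 10 past the test of spread between libraries (edgeR adjusted p = 0.001), with 236, 185, 164 and 249 CPM. That call was lost with a common dispersion, without replicate 3 and without replicate 4. The labels give the sex as female, but transcripts of 4 Y-linked genes, among them Ddx3y at 36.2 CPM ± 5.44, were present in every library. Every pair of libraries differed by more than sampling noise: chi-square divided by degrees of freedom ran from 5.17 to 13.6, so none is a copy of another.

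Replicate 1 stood apart in ways that touch these genes. Of 10 adipocyte markers, 8 were highest in replicate 1, and Adipoq, Cfd, Retn, Lep, Cidec and Plin1 had counts there and 0 counts in replicates 2, 3 and 4. The summed level of the 9 markers other than Plin1, itself among the 39 genes, was 42.5 CPM in replicate 1 and 2.39 to 2.63 CPM in the other libraries. Astrocyte markers, with all 12 present in every library and none at 0, went the other way, with a summed level of 310 CPM in replicate 1 and 424 to 519 CPM in the others. Immediate-early genes, which respond to stimulation and handling, summed to 2077 CPM in replicate 1 and to 1159 to 1469 CPM in the others. In bulk RNA, fewer cells of a type and less RNA per cell cannot be told apart. The calls of members that rest on replicate 1 are given with and without it.

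The fatty acid and droplet genes were well expressed and mostly steady. Of the 39, 36 (92.3%) reached 1 CPM in every library, beside 51.8% of the 21190 protein-coding genes with a length. Their median was 35.2 TPM, beside 1.71 TPM for all protein-coding genes. Among genes that reached 1 CPM in every library the medians were 42.2 and 22.4 TPM. At 100 TPM or more were 8 genes, 21 lay between 10 and 100 TPM, 7 between 1 and 10 TPM, and Acacb, Plin1 and Plin4 were under 1 TPM on average. Plin2 alone made up 27.1% ± 0.338 of the summed TPM of the 39.

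**Figure D1:**
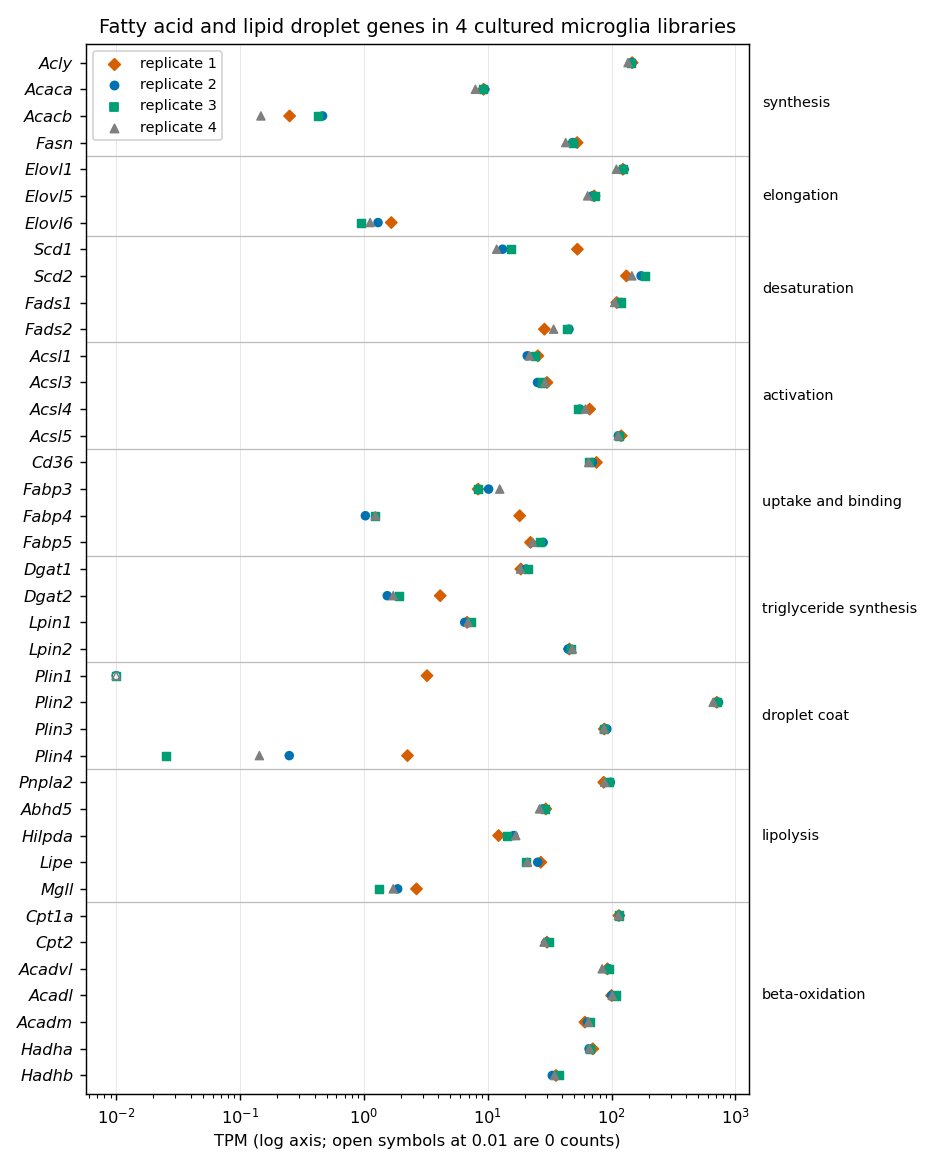
TPM of each of the 39 genes (log axis) in each of the 4 libraries, grouped by step; open symbols at the left are 0 counts. For Scd1, Fabp4, Plin1, Plin4 and Dgat2, replicate 1 lies well to the right of the other libraries; Acacb, Elovl6, Fabp3 and Mgll, at under 120 counts per library, are also spread out.

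**Figure D2:**
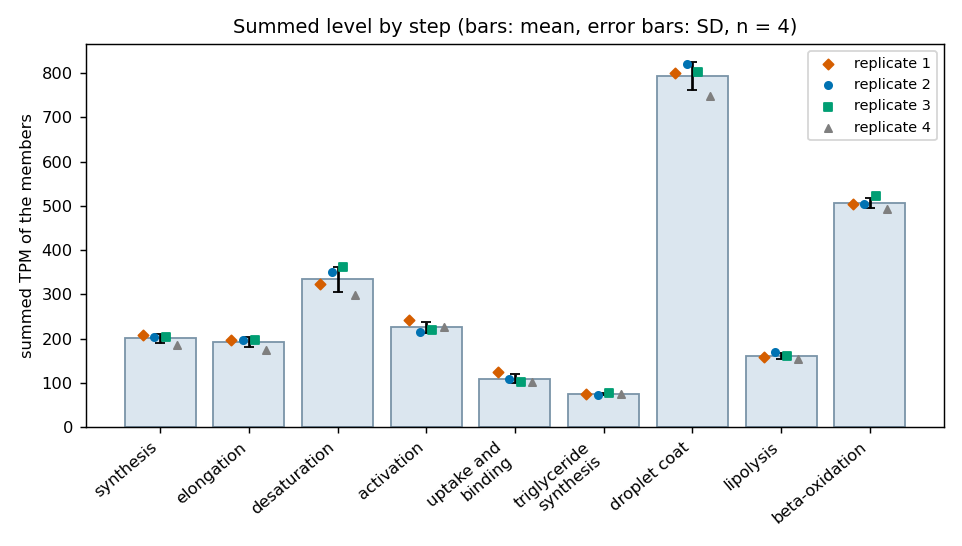
Summed TPM of the members of each step, with points for the libraries, bars for the mean and error bars for the SD (n = 4). Droplet coat genes summed highest (793 TPM, with Plin2 alone at 703 TPM), followed by beta-oxidation (505.5 TPM), and triglyceride synthesis lowest (75.2 TPM).

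By step, the droplet coat summed to 793 TPM ± 31.6 (SD, n = 4), beta-oxidation to 505.5 ± 11.6, desaturation to 334 ± 29.2 and activation to 225 ± 11.7. Synthesis summed to 201 ± 9.75, elongation to 192 ± 11.4, lipolysis to 160 ± 6.50, uptake and binding to 109 ± 10.5 and triglyceride synthesis to 75.2 ± 1.96. Of neighbours in this order, only synthesis and elongation overlapped in range (186 to 209 and 174.5 to 197 TPM). Their order rests on the length used: with merged exons synthesis was the higher in 4 of 4 libraries, and on the longest consensus coding transcript it was the lower, at 166 ± 8.25 against 188 ± 11.3 TPM. On those lengths the mean sums of the other steps kept their order, but single libraries did not always. Uptake and binding exceeded lipolysis in replicate 1 (180 against 150 TPM), and activation was below elongation in replicate 2 (188 against 194 TPM). These sums depend on the number of genes listed per step, 3 to 7, and describe transcripts and not flux. The droplet coat sum was mostly Plin2, at 703 TPM. By the median of its members the droplet coat, at 44.5 TPM, lay below desaturation (75.8), elongation (69.8) and beta-oxidation (67.3).

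To compare related genes, the difference in log2(TPM + 1) was taken within each library for 20 pairs. With 4 libraries, exact permutation of the signs (two-sided) gives no p below 0.13, so no pair can pass 0.05. In 19 of the 20 pairs the sign was the same in 4 of 4 libraries, with p = 0.13 in the exact test and 0.13 after adjustment over the pairs. The exception was Fabp3 and Fabp4, with 3 of 4 libraries on one side (exact permutation p = 0.25, and 0.25 adjusted).

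**Figure D3:**
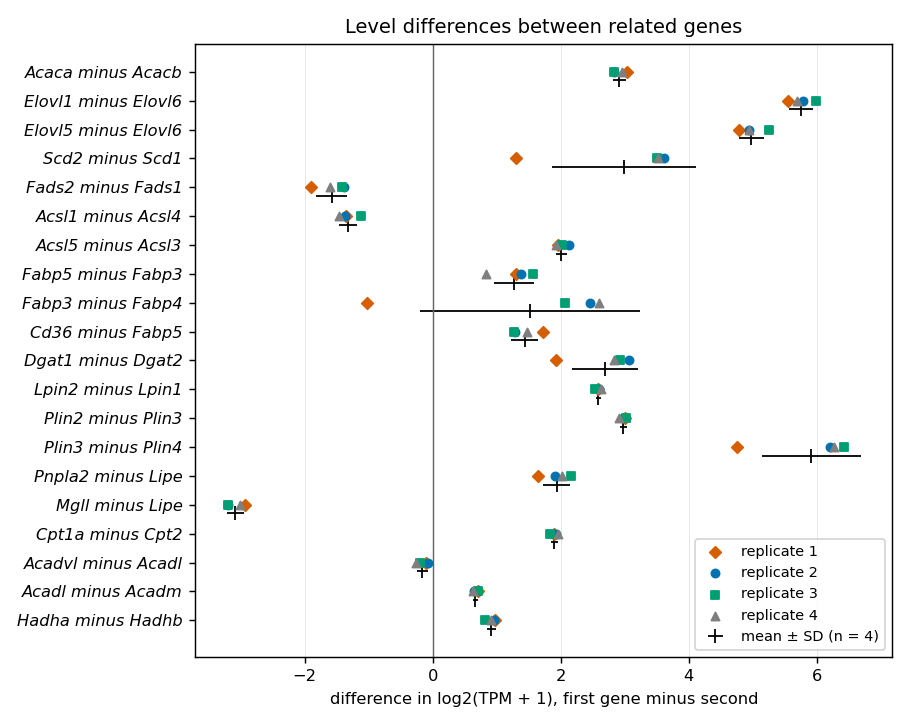
Difference in log2(TPM + 1) between the genes of each pair, first minus second, in each library, with the mean and SD (n = 4) in black just under them. The 20 pairs keep their side of 0 in every library except Fabp3 minus Fabp4, where replicate 1 lies at -1.03 and the others at 2.06 to 2.59.

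Uptake and binding genes differed widely in level and in spread. Cd36, a surface receptor that takes up long-chain fatty acids and oxidised lipoproteins, was at 78.7, 74.3, 69.6 and 69.7 CPM in replicates 1 to 4, or 69.1 TPM ± 4.77 (SD, n = 4). Its values lay close together. The fatty acid-binding proteins are small carriers of the cytosol. Fabp5, the epidermal type, was at 23.0, 29.6, 28.0 and 24.4 CPM, or 24.9 TPM ± 2.81. Fabp3, the heart type, was at 2.00, 2.47, 2.02 and 3.06 CPM, from 47 to 87 counts per library. By length it stood at 9.83 TPM ± 1.98, below Fabp5 by 1.27 ± 0.313 on the log2(TPM + 1) scale. On the opposite strand, Zcchc17 and Gm10570 cover 19.6% of the Fabp3 exons, so its reads and theirs may not have been told apart.

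Fabp4, the carrier named for adipocytes and macrophages, measured 23.6 CPM in replicate 1, against 1.37, 1.64 and 1.65 CPM in replicates 2, 3 and 4. Replicate 1, with 638 counts, lay far above the others, with 32 to 47 counts. It was 15.2 times the mean of the other libraries, and Fabp4 took 37.2% of the summed TPM of the 3 carriers there and 2.62% to 3.41% elsewhere. Using merged exon lengths, Cd36 stood above Fabp5 by 1.44 ± 0.210 on the log2(TPM + 1) scale. The merged exons of Fabp4 and Fabp5 (4489 and 3567 bases) are much longer than their longest coding transcripts in the consensus coding set, which raise Fabp5 to 62.5 TPM and turn the Cd36 minus Fabp5 difference to -0.30. That choice also moved Fabp4 to 18.8 TPM, Acsl1 to 43.0, Lpin2 to 69.8, Hadha to 102 and Hadhb to 78.7 TPM. For these 6 of the 39 genes it changed the mean level by over 1.5 times.

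Activation genes had CVs (the SD of CPM as a percent of the mean) of 1.73% to 9.20%. The long-chain acyl-CoA synthetases couple a fatty acid to coenzyme A. Acsl5 was at 169, 163, 165 and 163 CPM in replicates 1 to 4, or 115 TPM ± 3.10, with a CV of 1.73%, close to the 1.54% that counting alone gives. Acsl4, which prefers arachidonic acid and other polyunsaturated fatty acids, was at 104, 88.6, 85.8 and 98.6 CPM, or 59.2 TPM ± 5.87. Both were high in all libraries. Acsl3, found on nascent droplets, was at 38.1, 32.5, 35.4 and 37.5 CPM, or 27.9 TPM ± 2.11. Acsl1, the main form of fat and liver, was at 77.3, 64.6, 74.8 and 67.6 CPM, or 23.0 TPM ± 2.10. Acsl5 stood above Acsl3 by 2.01 ± 0.0869 on the log2(TPM + 1) scale. Acsl1 stood below Acsl4 by this measure, with an Acsl1 minus Acsl4 difference of -1.33 ± 0.144. On consensus coding transcripts that difference was 0.03, above 0 in 2 of 4 libraries, so the order of this pair rests on the length used.

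Synthesis of fatty acids from citrate runs through ATP citrate lyase, acetyl-CoA carboxylase and fatty acid synthase. Acly, the lyase, was highest, at 225, 228, 226 and 213 CPM, or 143 TPM ± 5.01. Fasn, the synthase, was at 168, 157, 158 and 138 CPM, or 48.1 TPM ± 4.15. Of the carboxylases, Acaca makes malonyl-CoA for synthesis in the cytosol. It was at 45.9, 47.7, 46.4 and 40.3 CPM, or 8.95 TPM ± 0.680. Acacb, the mitochondrial outer-membrane form that restrains fatty acid entry into mitochondria, had 19, 31, 28 and 12 counts, or 0.321 TPM ± 0.148. Acaca stood above Acacb by 2.92 ± 0.0988 on the log2(TPM + 1) scale. Acacb had a CV of 46.4%, where counting alone would give 21.1%, and did not pass the test of spread (edgeR adjusted p = 0.85).

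Elongation and desaturation set the chain length and double bonds. Elovl1, which lengthens saturated very-long chains, was at 97.8, 102, 99.4 and 88.5 CPM, or 121 TPM ± 7.58. Elovl5, which lengthens polyunsaturated chains, was at 74.0, 72.7, 76.3 and 67.0 CPM, or 69.8 TPM ± 4.12. Elovl6, which lengthens the palmitate that Fasn makes, was far lower, at 3.11, 2.47, 1.81 and 2.14 CPM, or 1.26 TPM ± 0.305. Elovl1 exceeded Elovl6 by 5.76 ± 0.186 and Elovl5 exceeded it by 4.98 ± 0.195 on the log2(TPM + 1) scale. Replicate 4 was lowest for Elovl1 and Elovl5, and the summed TPM of the elongases was 174.5 there beside 197 in each of the other libraries.

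Fads1 and Fads2 add double bonds to polyunsaturated fatty acids at the delta-5 and delta-6 positions. Fads1 was at 154, 170, 169 and 151 CPM, or 114 TPM ± 6.65. Fads2 was at 27.5, 44.2, 42.9 and 33.3 CPM, or 38.0 TPM ± 7.99. The Fads2 minus Fads1 difference was -1.58 ± 0.240 on the log2(TPM + 1) scale. Scd2, the stearoyl-CoA desaturase of the brain, was the highest desaturase, at 209, 280, 299 and 236 CPM, or 159 TPM ± 24.3. Scd2 and Fads2 were both lowest in replicate 1, the library where the astrocyte markers were lowest, and highest in replicates 2 and 3. Of all genes tested, 35.3% were lowest in replicate 1, as were 11 of the 37 members tested. Endothelial markers also summed lowest there (103 CPM beside 120 to 131 CPM). Those of the oligodendrocyte lineage and of mural cells and fibroblasts summed lowest in replicate 4. Of the 12 astrocyte markers, Gfap, Slc1a3 and Clu passed the test of spread, and without replicate 1 the number was 0 of 11 tested. The part of astrocytes or other cells in the values of Scd2 and Fads2 was not tested. Neither gene passed the test itself (edgeR adjusted p = 0.092 for Scd2 and 0.086 for Fads2).

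Scd1, the desaturase of liver, skin and fat, measured 75.3 CPM in replicate 1, against 19.1, 22.1 and 17.1 CPM in replicates 2, 3 and 4. Replicate 1 lay apart, at 3.87 times the mean of the other libraries, which lay close together. Scd1 made up 28.7% of the summed TPM of Scd1 and Scd2 in replicate 1, and 7.08%, 7.65% and 7.49% in replicates 2, 3 and 4. Scd2 exceeded Scd1 by 1.30 in replicate 1 and by 3.51 to 3.62 in the others on the log2(TPM + 1) scale.

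Triglyceride synthesis ends with the lipins, which make diacylglycerol from phosphatidic acid, and the acyltransferases Dgat1 and Dgat2. Lpin2 was at 162, 161, 171 and 175 CPM, or 46.4 TPM ± 1.62. Lpin1 was at 19.1, 18.6, 20.9 and 19.9 CPM, or 6.89 TPM ± 0.318. Lpin2 exceeded Lpin1 by 2.59 ± 0.0380 on the log2(TPM + 1) scale, with little spread. Dgat1 was at 16.4, 18.4, 19.3 and 16.7 CPM, or 19.6 TPM ± 1.43. Dgat2, the form tied to droplet growth and newly made fatty acids, measured 3.70 CPM in replicate 1, against 1.41, 1.77 and 1.58 CPM in the others. Its 100 counts in replicate 1 stood beside 33 to 45 elsewhere, and it did not pass the test of spread (edgeR adjusted p = 0.60 with the dispersion trend, 0.0023 with a common dispersion). Dgat1 exceeded Dgat2 by 2.69 ± 0.517 on the log2(TPM + 1) scale.

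The perilipins coat droplets. Plin2, the coat protein of droplets in most cells, was the highest of the 39 genes, at 722, 758, 744 and 689 CPM, or 703 TPM ± 29.9, above 99.2% of protein-coding genes. Plin3, which coats small new droplets, was at 96.0, 102, 97.6 and 97.8 CPM, or 88.2 TPM ± 2.18. Plin2 was 7.97 ± 0.273 times Plin3 by TPM, a difference of 2.98 ± 0.0498 on the log2(TPM + 1) scale. Plin1, the coat of the large droplets of adipocytes, had 118 counts in replicate 1 and 0 counts in replicates 2, 3 and 4. That is 4.37 CPM in replicate 1 (95% Clopper-Pearson interval 3.62 to 5.23), while 0 counts allow up to 0.129 CPM in any of the others, so it was at least 28.0-fold higher from the lower end of that interval. Intervals and limits cover counting error only. Plin4, also known from adipocytes, had 102 counts in replicate 1 and 10, 1 and 7 in replicates 2, 3 and 4, or 3.78, 0.427, 0.0431 and 0.246 CPM.

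The sequences upstream of the starts of these perilipin genes are shown, from RefSeq on GRCm38.p6, 5′ to 3′ on the strand of the gene. For each gene, only the longest run without annotated exon bases is given. Capitals mark CCAAT or GGGCGG and their reverse complements, ATTGG and CCGCCC, motifs of promoters in general. The counts are on mm39, so these coordinates serve only to place the sequences.
Plin1, chr7:79732904-79733026, minus strand: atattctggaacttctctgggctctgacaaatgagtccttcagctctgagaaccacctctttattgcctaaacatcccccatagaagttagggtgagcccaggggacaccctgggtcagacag
Plin2, chr4:86670061-86670309, minus strand: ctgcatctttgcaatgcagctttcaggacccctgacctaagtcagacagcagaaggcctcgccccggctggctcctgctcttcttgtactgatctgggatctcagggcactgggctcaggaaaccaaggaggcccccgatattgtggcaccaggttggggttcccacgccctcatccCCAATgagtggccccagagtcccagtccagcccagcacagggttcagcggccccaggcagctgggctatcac
Plin3, chr17:56290512-56290761, minus strand: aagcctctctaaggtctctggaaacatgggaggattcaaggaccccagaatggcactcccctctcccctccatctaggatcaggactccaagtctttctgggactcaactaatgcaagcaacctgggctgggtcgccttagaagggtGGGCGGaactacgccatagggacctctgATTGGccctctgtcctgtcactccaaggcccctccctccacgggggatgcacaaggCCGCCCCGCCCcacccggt
Plin4, chr17:56109804-56110032, minus strand: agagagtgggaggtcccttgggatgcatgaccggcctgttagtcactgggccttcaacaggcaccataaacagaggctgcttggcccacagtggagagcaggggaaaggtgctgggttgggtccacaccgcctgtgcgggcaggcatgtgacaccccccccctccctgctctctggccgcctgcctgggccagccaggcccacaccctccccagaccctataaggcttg

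In the stretches shown Plin3 held 1 CCAAT match and 3 GGGCGG matches, the last pair sharing a base, and Plin2 held 1 CCAAT match. Those of Plin1 and Plin4 held 0 of either, but the full 250 bases of Plin4 hold a CCAAT match in or across the bases left out. Over the 250 bases upstream of all 32851 RefSeq starts, 33.8% hold CCAAT and 32.7% hold GGGCGG on either strand. The 32 members with a listed promoter have 39 starts, of which 33.3% hold CCAAT and 53.9% hold GGGCGG. Repeated starts of a gene were dropped for the members and not for all starts. No comparison with the starts of other expressed genes was made, so these differences from all starts were not tested. The consensus direct repeat with 1 spacer base (DR1), of the kind PPAR receptors bind, was in 0 member starts and in 0.0335% of all starts. With only 11 matches among 32851 starts, this exact string is too rare for 0 among 39 to tell anything about the members. The SREBP motif TCACNCCAC was in 2.56% of member starts (Acsl1) and in 1.05% of all, and the E-box CACGTG in 10.3% (Elovl5, Lipe, Lpin2 and Mgll) and in 6.02%. No upstream sequence was listed for Scd1, Scd2, Fads1, Fabp4, Fabp5, Dgat1 and Dgat2. A match is a string of letters and no evidence of binding, and a link between matches and level was not tested.

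The lipolysis genes follow in the order in which their proteins act. Pnpla2, the adipose triglyceride lipase that removes the first fatty acid, was at 75.8, 87.3, 84.4 and 78.8 CPM, or 91.5 TPM ± 5.36. Its activator Abhd5 was at 50.9, 48.9, 51.5 and 46.4 CPM, or 28.1 TPM ± 1.48. Both were steady between libraries. Genes on the opposite strand overlap 15.95% of the exon bases of Abhd5 and 15.6% of those of Lipe, whose reads may not have been told apart from theirs. Hilpda, an inhibitor of Pnpla2 and a droplet protein induced by low oxygen, was at 3.92, 5.29, 4.70 and 5.51 CPM, or 14.9 TPM ± 2.07. Lipe, hormone-sensitive lipase, which acts next, was at 45.9, 44.1, 35.2 and 36.6 CPM, or 23.3 TPM ± 3.24. It was lower in replicates 3 and 4, without passing the test of spread (edgeR adjusted p = 0.77). Mgll, which releases the last fatty acid and also breaks down the endocannabinoid 2-arachidonoylglycerol, was low, at 3.92, 2.82, 1.98 and 2.60 CPM, or 1.89 TPM ± 0.561. Pnpla2 exceeded Lipe by 1.94 ± 0.218 on the log2(TPM + 1) scale, and the Mgll minus Lipe difference was -3.08 ± 0.135.

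The summed TPM of the beta-oxidation genes had the lowest CV of the 9 steps, 2.30%, here taken on TPM. On CPM, the 7 genes had CVs of 1.26% to 5.70%. Cpt1a, which commits fatty acids to mitochondria, was at 254, 262, 258 and 258 CPM, or 114.5 TPM ± 1.04. Its CV of 1.26% was close to the 1.23% that counting alone gives. Cpt2, the inner-membrane partner, was at 20.9, 21.0, 22.3 and 20.2 CPM, or 29.9 TPM ± 1.23, and Cpt1a exceeded it by 1.90 ± 0.0567 on the log2(TPM + 1) scale. The acyl-CoA dehydrogenases take the first step of each round, for very long (Acadvl), long (Acadl) and medium (Acadm) chains. Acadl was at 58.2, 59.4, 65.0 and 60.2 CPM, or 103 TPM ± 4.59. Acadvl was at 72.3, 75.8, 75.7 and 66.9 CPM, or 91.7 TPM ± 5.36, and Acadm at 69.2, 74.0, 77.5 and 75.7 CPM, or 64.2 TPM ± 2.55. Their order rests on the length used. Acadvl minus Acadl was -0.16 ± 0.0896 on log2(TPM + 1), and 0.08 on the longest transcript. Acadl minus Acadm was 0.67 ± 0.0412, and -0.19 on the longest transcript. The gene Dvl2 overlaps 42.9% of the exon bases of Acadvl on the opposite strand, so reads of the pair may not have been told apart.

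Hadha and Hadhb encode the subunits of the trifunctional protein that completes each round. Hadha was at 179, 170, 173 and 172 CPM, or 67.3 TPM ± 2.16. Hadhb was at 68.1, 64.8, 73.0 and 67.9 CPM, or 35.2 TPM ± 1.76. Hadha exceeded Hadhb by 0.92 ± 0.0696 (log2(TPM + 1)), with the same sign in 4 of 4 libraries. The genes are transcribed away from each other, with 272 bases between their RefSeq starts. The longest run of that space without annotated exon bases is shown because it lies upstream of both, with 187 bases left out. It is given on the plus strand, with GGGCGG in capitals.
Hadha and Hadhb, chr5:30155163-30155247, plus strand, GRCm38.p6: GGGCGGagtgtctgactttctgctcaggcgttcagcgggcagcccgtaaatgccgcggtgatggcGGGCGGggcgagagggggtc

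The comparison the design allows across all genes is the spread between the replicate libraries. A gene was called when its spread exceeded that of genes of like abundance (deviance test in edgeR with a trended dispersion, adjusted by Benjamini-Hochberg, threshold 0.05). Of the 39 members, 37 passed the filter on low counts and were tested, and 2 (5.41%) were called, beside 1.11% of the 12879 genes tested. At an unadjusted p under 0.05 there were 5 members, beside 6.79% of all genes. With a common dispersion 3 members were called, Dgat2 being added, beside 4.13% of all genes. The called genes were Fabp4 (edgeR adjusted p = 1.4e-42) and Scd1 (edgeR adjusted p = 2.7e-37), both highest in replicate 1. The filter left out Plin1 and Plin4, the members seen mainly in replicate 1. When every gene with at least 1 count was tested, 4 of 39 members were called, beside 0.695% of 22154 genes, with Plin1 (edgeR adjusted p = 3.7e-17) and Plin4 (edgeR adjusted p = 3.6e-07) added.

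Without replicate 1, 0 of 36 members were called in edgeR, beside 0.359% of all genes, with 2 at an unadjusted p under 0.05. DESeq2 also marked 0 members as dispersion outliers without replicate 1, beside 0.153% of genes, and 4 with all libraries, beside 0.501%. Both calls thus rest on replicate 1. Leaving out replicate 2, 3 or 4 gave 2 called members each time, beside 0.9%, 0.396% and 0.78% of all genes. Without replicate 1, Fabp4 was at 1.55 CPM ± 0.161 (SD, n = 3), Scd1 at 19.5 ± 2.52, Plin4 at 0.239 ± 0.192 and Plin1 at 0.

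**Figure D4:**
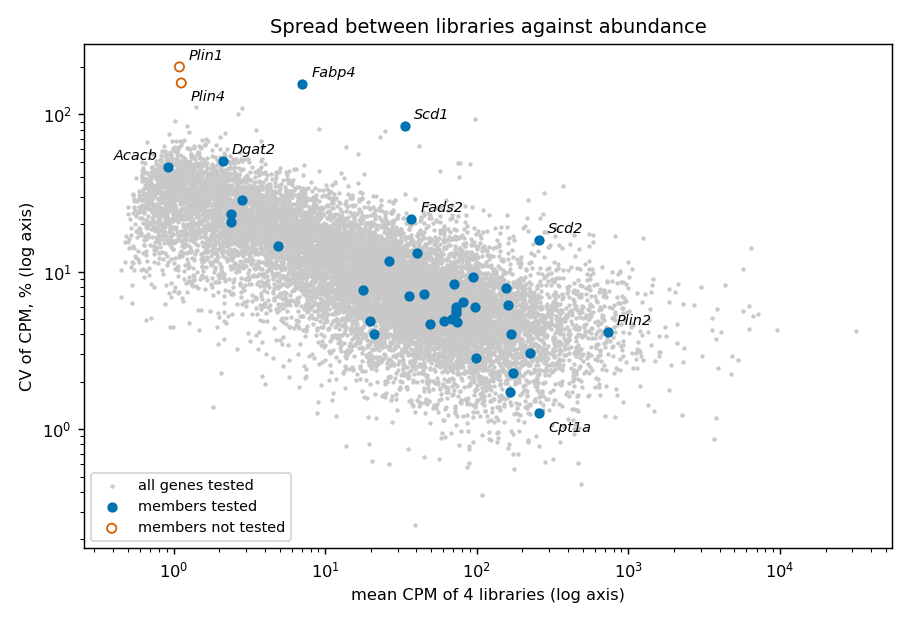
CV of CPM over the 4 libraries against mean CPM (both log axes) for all 12879 genes tested (grey), the 37 members tested (filled) and Plin1 and Plin4, which were not tested (open). Scd1, at a CV of 83.8%, and Fabp4, at 156%, lie above the cloud, while Cpt1a, at 1.26%, lies near its lower edge.

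Most other members varied less. The median CV of the tested members was 6.39%, beside 8.98% for all genes tested, and 25 of the 37 had a CV under 10%, beside 54.96% of all genes. A CV over 20% was seen in 8, beside 19.5% of all genes. The members were also more abundant, which lowers counting error. Among the 35 members other than Scd1, Fabp4, Plin1 and Plin4, the ratio of replicate 1 to the mean of the others ran from 0.685 for Fads2 to 2.34 for Dgat2. Of the tested members 13 peaked in replicate 1, and 12, 9 and 3 in replicates 2, 3 and 4, beside 24.0%, 22.9%, 30.2% and 22.8% of all genes tested.

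**Figure D5:**
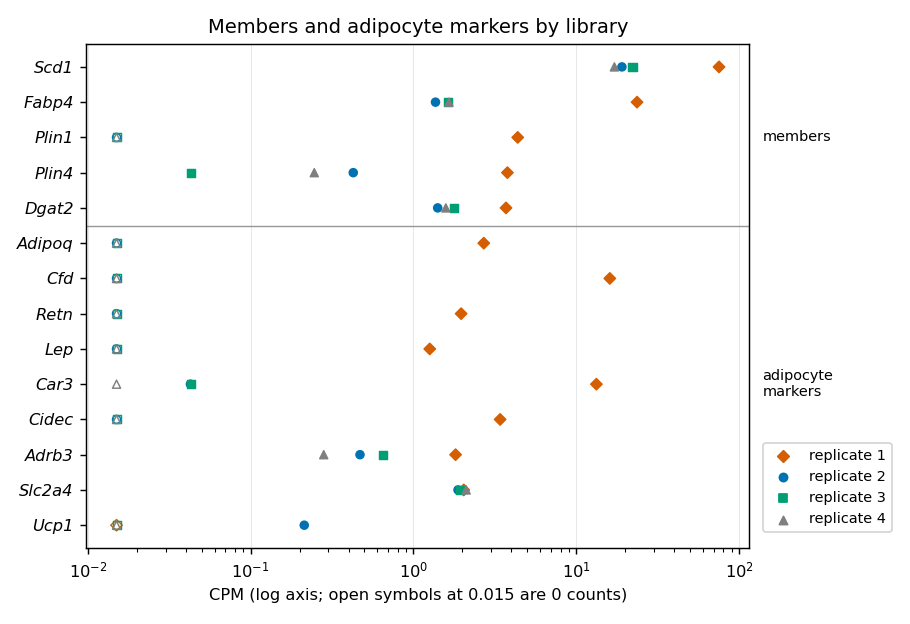
CPM (log axis) in each library of the 5 members highest in replicate 1 by a wide gap and of the adipocyte markers other than Plin1; open symbols at the left are 0 counts. In replicate 1 Cfd was at 16.1 and Car3 at 13.3 CPM, and the other libraries are at or near 0 for both, while Slc2a4 is at 1.88 to 2.11 CPM in all 4.

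Adipocyte markers moved with Fabp4, Scd1, Plin1 and Plin4. Cfd, the secreted protease adipsin, had 434 counts in replicate 1 and 0 in the others, at least 113-fold higher on the same terms. Car3, a carbonic anhydrase abundant in fat, had 359 counts in replicate 1 and 1, 1 and 0 in the others. Cidec, which fuses droplets, had 92 counts, the hormone genes Adipoq, Retn and Lep had 73, 53 and 34, and all were at 0 in the others. Adrb3, the beta-3 adrenergic receptor, had 49 counts in replicate 1 and 11, 15 and 8 in the others. The glucose transporter Slc2a4 did not follow, at 1.88 to 2.11 CPM in all libraries, and Ucp1, the uncoupling protein of brown fat, had 5 counts in replicate 2 and 0 elsewhere. Counted after the values were seen, 16 genes had at least 20 counts in replicate 1 and 0 in the other libraries. Plin1 was among them, as was Pck1 (225 counts), which makes glycerol for triglyceride in fat. The muscle genes Myh6 (133 counts) and Actn2 (21 counts) were also among them. Not all were fat or muscle genes: the processed pseudogenes Gm49017 (84 counts), Gm4468 (67 counts) and Gm8864 (35 counts), and Btf3-ps2 (35 counts), were listed too. By the same count rule, the number of genes for replicates 2, 3 and 4 was 0 each. The part of adipocytes or other cells in the values of Fabp4, Scd1, Plin1, Plin4 and Dgat2 was not tested.

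Genes of the same pathways outside the 39 were read from 7 lists with 124 different genes. Of these, 89 reached 1 CPM in every library and 96 were tested for spread, of which 0 were called in edgeR, with 11 at an unadjusted p under 0.05, beside 6.79% of all genes. With a common dispersion 5 were called (Thrsp, Acsbg1, Acsl6, Gpat3 and Hacl1), beside 4.13% of all genes. Cidec, which the filter on low counts leaves out, was called in edgeR without that filter and marked by DESeq2. Among 22 regulators, 21 were tested, and the highest were Txnip, a brake on glucose uptake, at 679 TPM ± 28.2, and Mid1ip1, an activator of acetyl-CoA carboxylase, at 151 TPM ± 15.1. Genes of these lists other than the highest were picked out after their values were seen. The lipogenic factor Srebf1 was at 82.7 TPM ± 3.83. The receptors Pparg, at 5.46 TPM ± 1.24, and Ppara, at 0.373 TPM ± 0.415, were low.

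Among 20 other synthesis, elongation and desaturation genes, 15 were tested. Hsd17b12 (225 TPM ± 6.19) and Tecr (182 TPM ± 23.9), which act in each elongation round, were highest. Scd3 and Scd4, the remaining stearoyl-CoA desaturases, were at 0.0371 and 0.941 TPM. Among 21 other activation, uptake and binding genes, 14 were tested. The lysosomal lipase Lipa (598 TPM ± 21.8) and lipoprotein lipase Lpl (329 TPM ± 32.4), which free fatty acids from lipoproteins inside and outside the cell, were highest, and Fabp1, Fabp2, Fabp6, Pmp2, Slc27a2, Slc27a5 and Slc27a6 were at 0 throughout, a limit of 0.129 CPM in the shallowest library.

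Of 14 other glycerolipid and sterol ester genes, 10 were tested, led by the acyltransferases Agpat1 (102 TPM ± 4.54) and Agpat3 (94.6 TPM ± 2.62). Of 16 other droplet proteins, 8 were tested, led by Hsd17b11 (199 TPM ± 7.21) and Aup1 (183 TPM ± 6.21). Plin5, the perilipin of oxidative tissues, was at 0.291 TPM ± 0.166. Of 15 other mitochondrial beta-oxidation genes, 14 were tested, led by the thiolase Acaa2 (107 TPM ± 8.16) and the short-chain dehydrogenase Acads (84.5 TPM ± 3.96). Cpt1b, the muscle form of Cpt1a, was at 0.132 TPM ± 0.122. Of 16 peroxisomal genes, 14 were tested, led by catalase, Cat (289 TPM ± 9.60), and Hsd17b4 (204 TPM ± 4.25).

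By their medians, markers of other cells of a glial culture lay below those of microglia, at 10.4 TPM for astrocytes against 1846 TPM. Of 12 astrocyte markers 11 reached 1 CPM in every library, led by Clu (210.5 TPM ± 44.9) and Gfap (50.3 ± 14.2). Of 11 oligodendrocyte lineage markers 3 did, led by Cnp (99.3 ± 3.08) and Mbp (43.9 ± 2.11), with Mog at 0. Of 10 endothelial markers 3 did, led by Flt1 (18.1 ± 0.839) and Slco1a4 (15.6 ± 3.30), with Tek and Esam at 0. Of 10 mural cell and fibroblast markers 7 did, led by Acta2 (84.5 ± 21.2), which passed the test of spread (edgeR adjusted p = 0.0041), and Tagln (28.7 ± 6.85). The Acta2 call was lost without replicate 3. Of 15 immediate-early genes 14 did, led by Junb (483 ± 86.6) and Jun (359 ± 70.7), and 12 passed the test of spread (Btg2, Dusp1, Egr1, Egr2, Fos, Fosb, Ier2, Ier3, Jun, Junb, Klf2 and Zfp36). All 12 were highest in replicate 1, and without that library 3 passed (Egr1, Fos and Ier2).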

How the data were processed

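The authors deposited raw read counts per gene symbol, 1 file per library. STAR 2.7.10a, SAMtools 1.16.1, HTSeq 0.11.2 and build mm39 (GRCm39) are named in the submitters' processing notes. Annotation release, strand setting and the handling of overlapping genes: not given in the sources used here. Altogether 5 summary lines (reads not assigned to a gene) held 11.8% ± 0.159 (SD, n = 4) of reads listed and were left out. TPM was computed here from merged exon lengths in GENCODE M21 (GRCm38), matched by symbol for all 39 members; merged exons can understate the TPM of genes with long alternative exons. Related genes (the Scd and Fabp families) may share reads.

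Spread was tested in edgeR 4.0.16 (R 4.3.3) with 1 mean per gene, TMM scaling, filterByExpr and the trended dispersion. Each gene's deviance was set against a chi-square with 3 degrees of freedom, over all genes. The procedure was also run on counts simulated from the fitted means and dispersion trend. Because it follows the same model, that run cannot give the rate of false calls in these data. DESeq2 1.42.0, a common dispersion, other scaling, no filter, other lengths and pseudocounts, and leaving out each library were alternatives. The members and the 14 other lists were chosen with earlier results of these data known. Named genes are all members, the top 2 of each list by TPM, genes past the test, and other cells' markers at 0; others are said to be so or follow a count. One gene that this rule would name is not reported here.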

Additional observations from a re-analysis of the deposited data

Results flagged for a closer look

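In a group of 4, a library was marked when its gap to the nearest other, divided by the range, exceeded Dixon's 95% critical value. This was applied to 39 members, 47 listed genes and the 9 sums by step. Chance marks about 1 in 20 groups of normally distributed values. That rate does not hold for a gene at 0 counts in every library but the highest, where any count gives a mark. Plin1, Adipoq, Lep, Cfd, Retn, Cidec and Ucp1 were of this kind. The lists were also chosen with earlier results known, so the number of marks cannot be set against that rate. Marked were 16 values, 14 of them in replicate 1. Among the members, replicate 1 was the highest for Scd1 (75.3 CPM), Fabp4 (23.6 CPM), Dgat2 (3.70 CPM), Plin1 (4.37 CPM) and Plin4 (3.78 CPM). Among the adipocyte markers it was the highest for Adipoq (2.702 CPM), Lep (1.26 CPM), Cfd (16.1 CPM), Retn (1.96 CPM), Car3 (13.3 CPM) and Cidec (3.41 CPM). It was also the highest for the immediate-early genes Egr1 (231 CPM) and Egr2 (20.1 CPM), and the lowest for Agpat3 (205 CPM beside 221 to 223 CPM). The marks outside replicate 1 were Ucp1, at 0.213 CPM in replicate 2, from 5 counts, and the summed TPM of the elongation genes, lowest in replicate 4 at 174.5.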

How the results depend on the processing

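The number of members called for spread was 2 in the fit reported, 2 with DESeq2 size factors and 3 with a common dispersion, which called 4.13% of all genes and added Dgat2. It was 4 when every gene with at least 1 count was tested, 4 as DESeq2 dispersion outliers, and 0 as DESeq2 outliers without replicate 1, an alternative chosen after seeing the data. Leaving out 1 library gave 0 to 2, with 0 only without replicate 1. Of the 20 pairs, all kept their sign with a pseudocount of 0.1 or 10 and without each library. On CPM without gene length 3 turned: Fabp3 minus Fabp4 (-0.42, from replicate 1 at -3.04, with the others at 0.20 to 0.61), Acadvl minus Acadl (0.26) and Acadl minus Acadm (-0.28). On the longest transcript the last 2 turned (0.08 and -0.19). On the longest consensus coding transcript, chosen after seeing the data, 5 turned: these 2 (0.08 and -0.19), Fabp3 minus Fabp4 (-0.30, again below 0 in replicate 1 and above it in the other 3), Cd36 minus Fabp5 (-0.30) and Acsl1 minus Acsl4 (0.03, above 0 in 2 of 4 libraries). No comparison of paired samples was possible because the labels give a single group. Depth limits Plin1, Plin4, Acacb, Fabp3, Elovl6, Dgat2 and Mgll, each under 120 counts in every library.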
